A study of Mus musculus with 721 samples.

Results

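The 9 genes described here encode transcription regulators of the formative and primed epiblast: Otx2, Pou3f1, Zic2, Zic5, Sox4, Sox11, Tcf15, Utf1 and Sall2. They were taken by symbol from a table of raw read counts per gene and cell, and each of the 9 matched 1 of its 24483 gene rows. The table holds 721 mRNA libraries made from hand-picked cells of wild-type C57Bl/6Babr mouse embryos at embryonic days (E) 3.5, 4.5, 5.5 and 6.5, and the study followed how cells of the early embryo part into lineages over these days. Each library was made by G&T-seq, which splits the RNA from the DNA of 1 cell, with Smart-seq2 amplification of the polyadenylated RNA.

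After implantation the epiblast, the layer from which the embryo proper is built, leaves the naive pluripotent state of the inner cell mass, passes through a formative state in which it becomes able to answer inductive signals, and reaches a primed state at gastrulation. Otx2 and Pou3f1 (also called Oct6) are homeodomain and POU-domain factors of this transition, Zic2 and Zic5 are zinc-finger factors, and Sox4 and Sox11 are related HMG-box factors. Tcf15 is a basic helix-loop-helix factor known from cells on the way out of naive pluripotency, Utf1 is a chromatin-bound factor of pluripotent cells, and Sall2 is a zinc-finger relative of Sall4. Otx2 also has a known role in the anterior visceral endoderm, the part of the outer endoderm layer that patterns the epiblast beneath it and expresses Cer1.

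All groups share the strain and the wild-type genotype, and none was treated. At E3.5 there were 99 libraries from 10 embryos, which formed 1 cluster and were kept whole as inner cell mass, with the trophectoderm removed by immunosurgery. At E4.5, 26 libraries from 5 embryos were epiblast-like and 79 from the same 5 embryos were primitive endoderm-like (PrE-like). At E5.5, before the anterior visceral endoderm had moved, 259 libraries from 9 embryos were epiblast-like and 8 from 4 embryos endoderm-like. At E6.5, at the early streak stage, 184 libraries from 13 embryos were epiblast-like, 41 from 12 embryos endoderm-like and 25 from 2 embryos streak-like. The names rest on marker genes, and the 9 genes were held out of the clustering.

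The titles distinguish 37 embryos, which is more than the study counts, so a few labels may stand for the same embryo. The libraries held 66896 to 3792936 counts (median 692863) and at least 4009 detected genes, and 128 of them came from wells in which a doublet had been seen. The titles of 4 E6.5 embryos name no plate, 2 of these embryos are titled E6.75, and plate and titled age cannot be told apart in them. The titles of E3.5 cells from 1 plate give no embryo number, and these 9 cells were treated as 1 embryo. A cluster of 29 E6.5 cells kept as epiblast-like was led by Per3, Gm20417 and Malat1, which are no epiblast markers, and results at E6.5 were also computed without it. In the PrE-like sums at E4.5 the 9 epiblast markers summed to 650 to 1063 CPM (each gene's share of a sum's counts, scaled to 1e6) against 2368 to 3941 in epiblast-like sums, and in endoderm-like sums at E6.5 to 63.6 to 316 against 777 to 1828. None of the epiblast markers was at 0 in either of these endoderm classes, and their part in the differences between classes was not tested. Some plate names recur between stages. P1 is named for E4.5 embryos and for embryos of both later stages, P2 for E4.5 and E6.5 embryos, and P11.P6.P10 for E3.5 and E5.5 embryos. The titles do not say whether a repeated name means the same plate, so plate and stage cannot be told apart. The 6 trophoblast markers summed to at most 212 CPM in any E3.5 embryo.

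Positions are those of GENCODE M21 on GRCm38. Otx2 spans chr14:48657677-48673819 on the minus strand, Zic5 chr14:122456795-122465677 on the minus strand, Zic2 chr14:122475435-122479852 on the plus strand and Sall2 chr14:52311172-52328762 on the minus strand. Zic2 and Zic5 are divergent neighbours with 9757 bp between their starts. Sox4 spans chr13:28948919-28953713 and Sox11 chr12:27334264-27342574, both on the minus strand, and Pou3f1 chr4:124656807-124660655, Tcf15 chr2:152143561-152149097 and Utf1 chr7:139943789-139945112, all on the plus strand. The counted rows of Sox11 and Pou3f1 start inside these spans, at chr12:27340697 and chr4:124657646. For Sox11 most of the span, at its 3′ end, thus lies outside the counted row, and reads there may be missing. What this did to its zeros, low levels and low shares of cells was not tested. Exons of Otx2, Pou3f1 and Sox4 overlap annotated RNAs on the opposite strand (Otx2os1, Gm2164 and Gm26735), and since counting was not stated to use strand, reads of these partners cannot be told apart from those of the members.

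The upstream sequences of Otx2, Sox4 and Zic5 are shown because Otx2 and Sox4 had the most alike levels of any pair of members over the embryos, and because Zic5 had the largest rise from E5.5 to E6.5. Each is the 250 bases before 1 annotated start in RefSeq (GRCm38.p6), read 5′ to 3′ on the gene's strand, and capitals mark CG pairs.
Otx2, chr14:48665110-48665359, minus strand: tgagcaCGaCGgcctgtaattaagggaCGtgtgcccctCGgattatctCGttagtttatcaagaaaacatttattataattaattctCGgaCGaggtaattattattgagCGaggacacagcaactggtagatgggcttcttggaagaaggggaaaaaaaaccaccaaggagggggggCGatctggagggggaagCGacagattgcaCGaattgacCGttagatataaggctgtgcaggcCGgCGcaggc
Sox4, chr13:28953700-28953949, minus strand: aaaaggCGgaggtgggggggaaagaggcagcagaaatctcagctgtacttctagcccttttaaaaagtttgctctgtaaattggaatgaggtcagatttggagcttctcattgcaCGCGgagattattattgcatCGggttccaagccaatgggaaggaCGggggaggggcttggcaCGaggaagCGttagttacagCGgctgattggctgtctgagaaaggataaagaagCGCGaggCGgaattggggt
Zic5, chr14:122465659-122465908, minus strand: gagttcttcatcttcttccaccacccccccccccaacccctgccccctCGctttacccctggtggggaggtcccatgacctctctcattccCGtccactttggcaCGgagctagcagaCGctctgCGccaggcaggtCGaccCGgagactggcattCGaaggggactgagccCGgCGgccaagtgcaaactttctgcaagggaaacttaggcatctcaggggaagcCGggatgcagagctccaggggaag
The Otx2 window shown holds 14 CG pairs, and the Sox4 and Zic5 windows hold 11 each, beside a median of 6 over 32817 mouse windows of the same length. Otx2 has 3 other annotated starts, whose windows hold 6, 8 and 9 CG pairs, so the one shown has the most, and it was chosen with these values known. RefSeq windows were found for 6 of the 9 members. The letters TAATCC, the core bound by OTX homeodomains, were searched on both strands and occurred at the Otx2 start shown and at no other start of a member, beside 6.25% of all windows. The octamer ATGCAAAT, bound by POU factors, occurred at none of the members' starts, beside 1.6% of all windows. A match of letters is a description and not a bound site.

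To follow levels, the cells of each class were added up embryo by embryo where there were at least 3, so that the embryo is the replicate, and expressed as CPM scaled by TMM (edgeR's trimmed mean of M values) over all 50 sums. In such sums, fewer cells with a transcript and less RNA per cell cannot be told apart. The quasi-likelihood test of edgeR, adjusted by Benjamini-Hochberg over all genes tested, was used for changes, and a change was called where the adjusted p did not exceed 0.05 and the log2 fold change was over 1 (over 2 between the E4.5 classes, the limit the study set there).

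**Figure D1:**
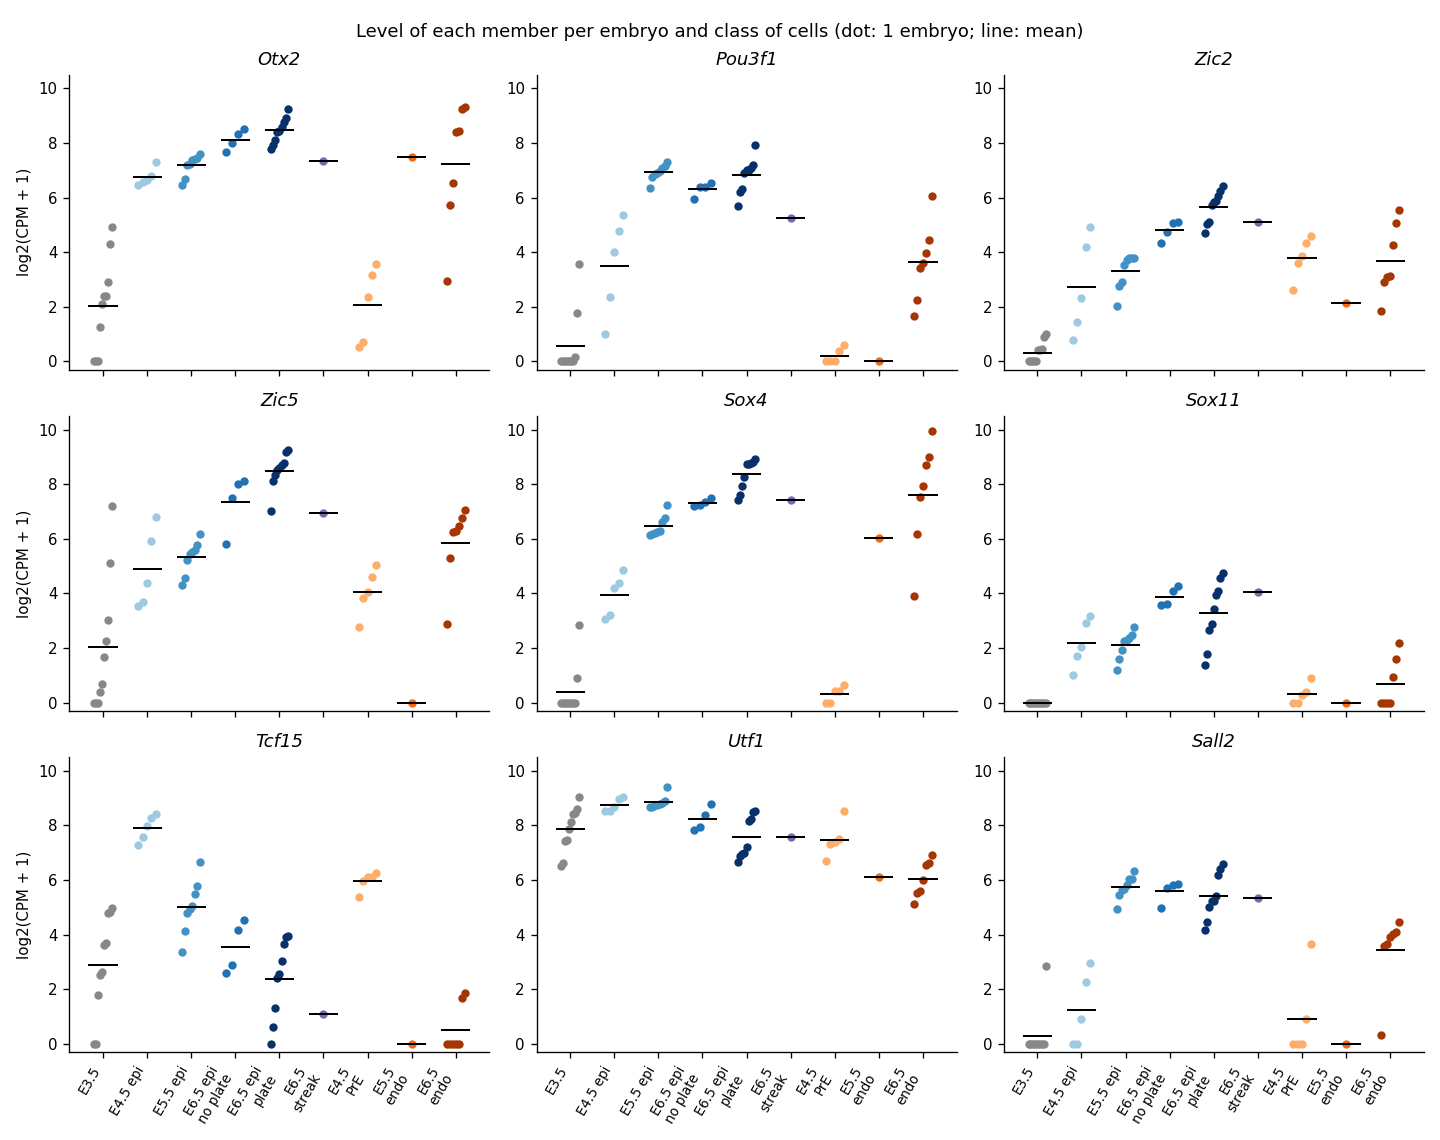
Level of each of the 9 members, as log2(CPM + 1), in every embryo sum (dots) by class of cells, with the mean as a line. Sox11 was at 0 in all 10 E3.5 sums, and Tcf15 was highest in the E4.5 epiblast-like class, while the Zic5 and Sox4 means were highest in E6.5 epiblast-like sums with a plate name.

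Between E3.5 and E4.5, 6 of the 9 members rose and none fell, among 13263 genes tested of which 21.3% were called (12.7% as higher). The median log2 fold change of the 9 was 3.92, against 0 over all genes tested. Sox11 stood at 0 in every E3.5 embryo, and Sox4, Pou3f1 and Sall2 were at 0 in 8, 7 and 9 of the 10.

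Otx2 ranged from 0 to 29.3 CPM at E3.5 (median 3.74, n = 10 embryos). In the E4.5 epiblast-like sums of embryos 1 to 5 it stood at 158, 111, 88.0, 94.2 and 98.3 CPM. Every E4.5 embryo was thus above every E3.5 embryo, and Otx2 rose by 3.92 on the log2 scale (SE 0.58, adjusted p = 2.58e-06). Tcf15 ranged from 0 to 30.7 CPM at E3.5 (median 8.33) and stood at 338, 311, 251, 189 and 156 CPM at E4.5. Its groups did not overlap either, and it rose by 4.35 (SE 0.76, adjusted p = 3.77e-05).

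Sox4 was at most 6.22 CPM at E3.5 and stood at 19.6, 8.26, 17.4, 7.38 and 27.6 CPM at E4.5, a rise of 4.75 on the log2 scale (SE 0.70, adjusted p = 2.23e-06). The E4.5 embryos again lay above all E3.5 embryos. Sox11, counted over only a part of its annotated span, had 0 counts among 58421534 at E3.5, and 2.22, 6.61, 8.03, 1.03 and 3.12 CPM at E4.5. Set against a floor of 3 counts over the E3.5 group, its pooled E4.5 level of 3.54 CPM was at least 68.9-fold higher (adjusted p = 2.41e-07), and with Sox11 at this bound the median of the set was still 3.92.

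Pou3f1 was at 0 in 7 E3.5 embryos with a highest value of 10.7 CPM, and stood at 26.3, 40.2, 1.004, 4.12 and 14.9 CPM at E4.5. Its groups overlapped, since embryos 3 and 4 lay below the highest E3.5 embryo, and it rose by 3.82 (SE 0.81, adjusted p = 5.01e-04). Zic2 was at most 0.990 CPM at E3.5 and stood at 0.740, 29.2, 4.02, 1.72 and 17.2 CPM at E4.5, a rise of 4.99 (SE 0.78, adjusted p = 6.28e-06) in which embryo 1 lay within the E3.5 range.

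The other 3 members did not pass. Utf1 was already at 90.8 to 524 CPM at E3.5 (median 255) against 363 to 523 CPM at E4.5, a difference of 0.69 (adjusted p = 0.12). Zic5 differed by 1.19 (adjusted p = 0.36), and its E3.5 values ran from 0 to 147 CPM with the highest in 1 embryo of 3 cells. Where sums needed at least 5 cells, which left that embryo out, Zic5 differed by 4.38 (adjusted p = 2.47e-04, over all alternatives 2.47e-04 to 0.89). Sall2 differed by 2.07 (adjusted p = 0.14), with 1 of 10 E3.5 embryos and 3 of 5 E4.5 embryos above 0, and passed on single cells only (7.96, adjusted p = 9.14e-06) and with at least 5 cells (5.49, adjusted p = 0.00931), over alternatives of 9.14e-06 to 0.61.

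**Figure D2:**
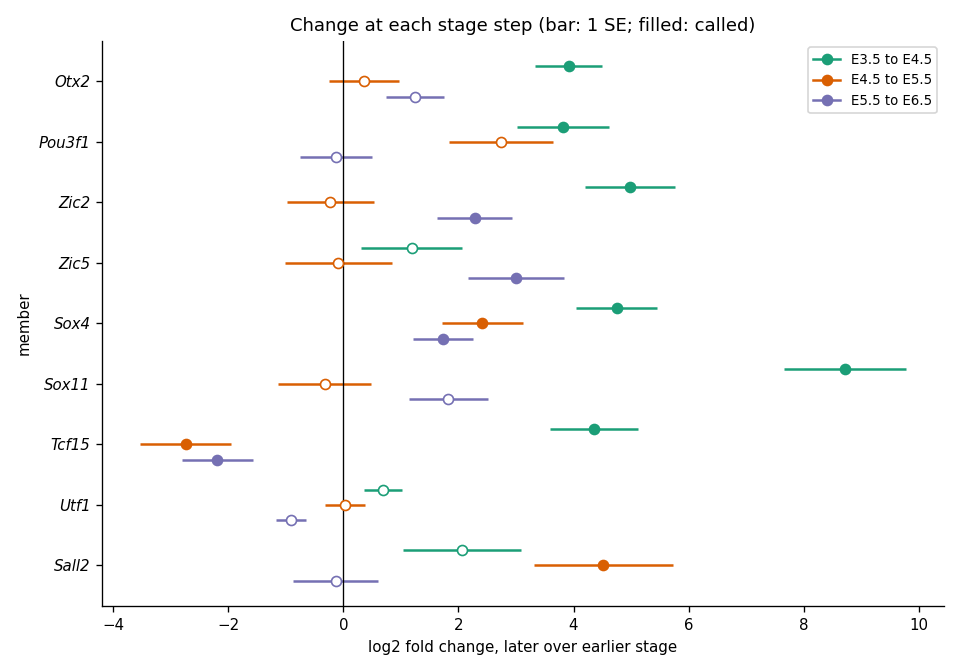
Log2 fold change of each member at the 3 stage steps of the epiblast lineage, later over earlier stage, with bars of 1 standard error and filled symbols for called changes. Filled symbols lie right of 0 for 6 members at E3.5 to E4.5, on both sides for 3 members at E4.5 to E5.5 and for 4 at E5.5 to E6.5, with Tcf15 left of 0 at both later steps.

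From E4.5 to E5.5 the members parted. Sall2 and Sox4 rose and Tcf15 fell, so 3 of 9 were called beside 6.26% of the 13263 genes tested, and the median of the set was 0.03 against 0.17 over all genes. Sall2 stood at 0, 3.85, 6.69, 0.858 and 0 CPM in the E4.5 epiblast-like sums and at 29.7 to 79.5 CPM at E5.5 (median 52.7, n = 8 embryos). The groups were apart, and Sall2 rose by 4.52 (SE 1.21, adjusted p = 0.0155). Sox4 went to 68.9 to 149 CPM at E5.5 (median 76.3), above every E4.5 embryo, a rise of 2.42 (SE 0.70, adjusted p = 0.0286).

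Tcf15, which had been at 156 to 338 CPM, stood at 9.25 to 100 CPM at E5.5 (median 30.6), below every E4.5 embryo, and fell by 2.74 on the log2 scale (SE 0.79, adjusted p = 0.0266). These 3 calls were close to the limit. Leaving out 1 of the 5 E4.5 embryos ended the Sox4 call without embryo 1, 2, 3 or 4 (adjusted p up to 0.0867), the Tcf15 call without embryo 1, 2 or 3 (up to 0.0603) and the Sall2 call without embryo 4 (0.0518), with fold changes of 2.24 to 2.50, -2.61 to -2.74 and 4.29. Over all alternatives the adjusted p ran from 0.00167 to 0.0867 for Sox4, from 0.00296 to 0.0603 for Tcf15 and from 1.51e-05 to 0.0518 for Sall2.

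Pou3f1 stood at 81.4 to 156 CPM in the 8 E5.5 embryos (median 121), each above the highest E4.5 embryo at 40.2 CPM, with a difference of 2.75 (SE 0.91, adjusted p = 0.0563). It missed the limit here and passed with DESeq2 (2.66, adjusted p = 0.0191), with sums of at least 5 cells (2.99, adjusted p = 0.0143) and without E4.5 embryo 2 (3.36, adjusted p = 0.0462), over alternatives of 0.0143 to 0.14. Otx2 differed by 0.36 (adjusted p = 0.83) and Utf1 by 0.03 (adjusted p = 0.99), and the Otx2 range of 87.0 to 191 CPM at E5.5 overlapped that at E4.5. Zic2, Zic5 and Sox11 differed by -0.23, -0.09 and -0.33, with adjusted p from 0.90 to 0.98.

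From E5.5 to E6.5 the Zic pair and Sox4 rose and Tcf15 fell, 4 of 9 members beside 8.1% of 13263 genes, with a median of 1.25 over the set against 0 over all genes. Zic5 ran from 19.0 to 70.4 CPM at E5.5 (median 43.5) and from 54.5 to 603 CPM at E6.5 (median 320, n = 13 embryos). Only E6.5 embryo 2 without a plate name lay inside the E5.5 range, and Zic5 rose by 3.00 (SE 0.84, adjusted p = 0.0143). Zic2 ran from 3.04 to 12.9 CPM at E5.5 (median 11.5) and from 19.2 to 85.3 CPM at E6.5 (median 33.4), with no overlap, and rose by 2.28 (SE 0.65, adjusted p = 0.0180).

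Sox4 ran from 147 to 490 CPM at E6.5 (median 242), where only the lowest E6.5 embryo lay below the highest E5.5 embryo at 149 CPM, and rose by 1.73 (SE 0.53, adjusted p = 0.0276). Tcf15 was at 0 to 22.1 CPM at E6.5 (median 6.46), overlapped the E5.5 range, and fell by 2.19 (SE 0.62, adjusted p = 0.0153). Zic2, Zic5 and Sox4 were listed by the study as markers of E6.5 epiblast cells and Tcf15 as a marker of the E4.5 epiblast on these same libraries, so their directions are not independent evidence. The same holds for Pou3f1, which the study used as a primed marker of the E5.5 epiblast. For Otx2 the study described higher expression in the E6.5 epiblast, in a passage on the primitive streak and not on E5.5. The direction of Otx2 between streak-like and epiblast-like cells is thus not independent evidence either.

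Utf1 differed by -0.91 (adjusted p = 0.0206), under the fold limit, from 410 to 675 CPM at E5.5 to 99.4 to 437 CPM at E6.5. Otx2 differed by 1.25 (adjusted p = 0.11), although each of the 13 E6.5 embryos, at 201 to 610 CPM, lay above all 8 E5.5 embryos. Sox11 differed by 1.83 (adjusted p = 0.0874), and Pou3f1 and Sall2 by -0.14 and -0.13. Sox11 passed with DESeq2, with at least 5 cells, with embryos merged across plates and without the 29-cell cluster (adjusted p from 0.00301 to 0.0489), and Otx2 passed with DESeq2 (0.0453) and with at least 5 cells (0.0155). Over all alternatives the adjusted p ran from 0.00301 to 0.32 for Sox11 and from 0.0155 to 0.74 for Otx2.

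The estimated E6.5 rises were larger in the embryos whose titles name a plate. In the 9 embryos with a plate name against E5.5, Zic5 differed by 3.28, Zic2 by 2.56 and Sox4 by 2.03, and 5 members passed, with Utf1 as the fifth. In the 4 embryos without one the differences were 2.16, 1.504 and 0.81 with the same signs, and none of the 9 passed (adjusted p = 0.47, 0.60 and 0.84). Tcf15 differed by -2.48 and -1.63 in these sets, and by -1.80 (adjusted p = 0.10) without the 29-cell cluster. Over the alternatives of this step, calls over all genes ran from 235 to 2945. Counts of members passing in the 2 sets are thus not like for like.

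Set directly against each other, the E6.5 epiblast-like sums with and without a plate name gave no call among the 9 members, beside 0.871% of 11602 genes. At an unadjusted edgeR p of at most 0.05, 3 of the 9 members passed (Sox4, Zic5 and Zic2), beside 876 of 11602 genes, and DESeq2 called 1 member. Sox4 stood at 160.5, 147, 181 and 149.5 CPM in the 4 embryos without a plate name and at 169 to 490 CPM (median 425) in the 9 with one. These ranges overlapped at 1 embryo without a plate name, and the difference of 1.16 (adjusted p = 0.0644) passed with DESeq2, with relative log expression scaling and on single cells only.

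The share of cells with a count was followed as another measure. Each cell was thinned to 200000 counts, which left out 13 of 721 cells, and shares were averaged over embryos with at least 4 cells. From E3.5 to E4.5 Otx2 went from 17.8% ± 11.8 (SD, n = 6 embryos) of cells to 96.7% ± 7.45 (n = 5), Tcf15 from 26.5% ± 8.81 to 96.0% ± 8.94, Zic5 from 14.5% ± 11.5 to 70.8% ± 8.99 and Sox4 from 1.85% ± 4.54 to 52.5% ± 27.8. Pou3f1 went from 2.83% ± 4.60 to 37.7% ± 16.2 and Sox11 from 0% to 25.2% ± 14.4. These 6 passed an exact two-sided permutation test over embryos adjusted over all 13263 genes (p = 0.00216, the smallest this design allows, adjusted p = 0.0363), beside 5.96% of genes. On single cells only, with 6 against 4 embryos and a smallest possible p of 0.00476, this exact permutation test called none of the 13263 genes, and all 6 calls were lost (adjusted p = 0.0686 to 0.19). Pou3f1 and Sox11 also missed with a limit of 10 CPM and no thinning (adjusted p = 0.11). Zic2, whose level was called at this step, went from 5.81% ± 8.79 to 34.9% ± 31.5 of cells and missed (exact permutation test, adjusted p = 0.215).

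**Figure D3:**
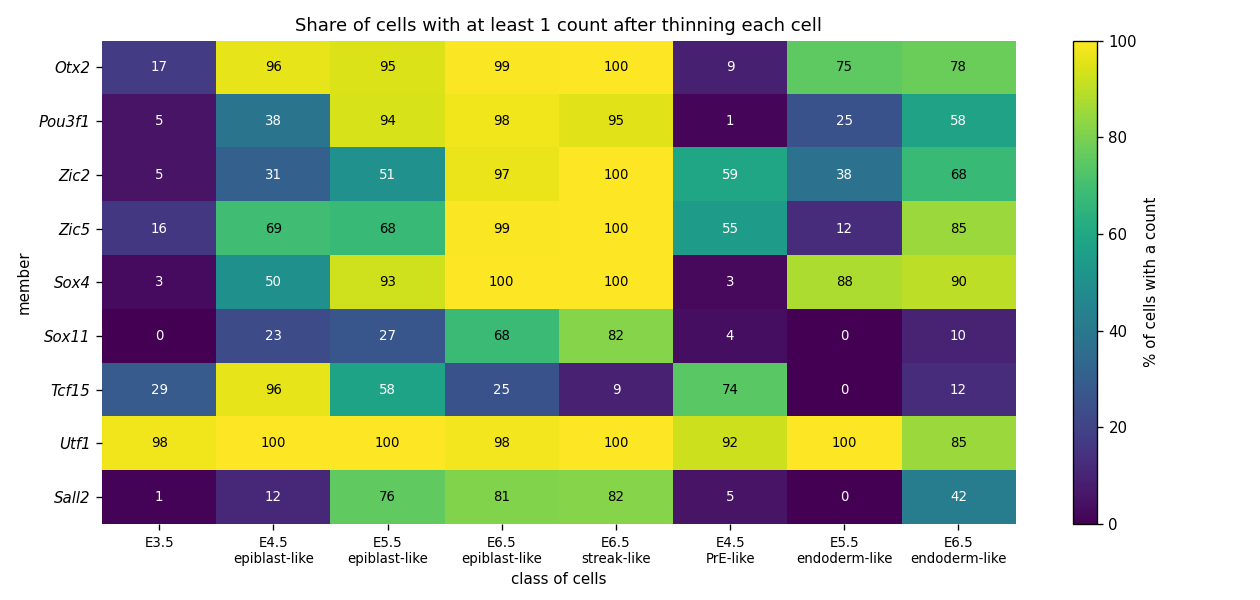
Percentage of cells with at least 1 count of each member after thinning to 200000 counts, by class of cells, over all cells of the class. Sox11 was found in 0 of 98 E3.5 cells, Tcf15 in 25 of 26 E4.5 epiblast-like cells and in 45 of 178 E6.5 epiblast-like cells.

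From E4.5 to E5.5 the share rose for Pou3f1 to 94.4% ± 4.92 (n = 8 embryos), for Sall2 from 12.9% ± 12.5 to 76.7% ± 13.1 and for Sox4 to 92.5% ± 6.73, and fell for Tcf15 to 58.9% ± 18.2. These 4 members passed beside 14.6% of genes (exact permutation test, adjusted p = 0.0122, 0.0122, 0.0190 and 0.0243), and Sox4 missed on single cells only (adjusted p = 0.0618). From E5.5 to E6.5 the share rose for Zic2 from 52.1% ± 11.8 to 96.4% ± 8.60 (n = 11 embryos), for Zic5 from 69.7% ± 14.2 to 98.7% ± 4.31, for Sox11 from 27.7% ± 9.97 to 67.3% ± 21.8 and for Sox4 to 100%. These 4 passed beside 11.6% of genes (exact permutation test, adjusted p = 0.00108, 0.00172, 0.00948 and 0.00479). Tcf15, whose level was called at this step, went from 58.9% ± 18.2 to 29.15% ± 23.4 of cells and missed (exact permutation test, adjusted p = 0.0728).

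Sox11 was found in 0 of 98 thinned E3.5 cells, which with an exact 95% interval allows a share of up to 3.69%, a limit for counting error only. Without thinning, the shares at E3.5 were 19.2% of 99 cells for Otx2, 29.3% for Tcf15 and 0% for Sox11. Of 9 members, the median E3.5 cell held counts of 2, the median E4.5 epiblast-like cell 5, the E5.5 cell 7 and the E6.5 cell 8. At least 6 members were found in 0 of 98 E3.5 cells, 10 of 26 E4.5 epiblast-like cells, 206 of 258 E5.5 cells and 174 of 178 E6.5 cells.

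In E4.5 epiblast-like cells Otx2 and Tcf15 were found together in 24 of 26, with 1 cell holding each alone, and all 10 cells with Pou3f1 and all 13 with Sox4 also held Otx2. At E6.5, 45 of 178 epiblast-like cells held Otx2 and Tcf15 and 132 held Otx2 without Tcf15. Zic2 and Zic5, the neighbours on chromosome 14, were found together in 1 of 98 cells at E3.5, where 15 held Zic5 alone, in 108 of 258 E5.5 cells and in 173 of 178 E6.5 cells. Otx2 was in 25 of the 26 E4.5 epiblast-like cells, and at E6.5 Zic2 was in 173 and Zic5 in 177 of 178. The overlaps with Otx2 at E4.5 and of the Zic pair at E6.5 were thus nearly fixed by these shares. Whether members went together in cells was not tested.

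At E4.5 the PrE-like cells differed from the epiblast-like cells of the same embryos in 3 members, Pou3f1, Sox4 and Otx2, all lower, beside 5.2% of 12337 genes (1.51% as lower). The median of the 9 was -2.04 against 0.08 over all genes. Otx2 stood at 0.629, 0.431, 10.9, 4.07 and 8.01 CPM in the PrE-like sums of embryos 1 to 5, where the epiblast-like sums had 88.0 to 158 CPM. It was lower in each of the 5 embryos, with a log2 difference of -4.54 (SE 0.76, adjusted p = 1.34e-04).

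Sox4 stood at 0, 0, 0.344, 0.350 and 0.580 CPM in the same PrE-like sums, against 7.38 to 27.6 CPM in the epiblast-like sums, a difference of -5.63 (SE 0.81, adjusted p = 1.84e-05). Pou3f1 stood at 0.314, 0, 0, 0 and 0.527 CPM, against 1.004 to 40.2 CPM, a difference of -6.48 (SE 1.04, adjusted p = 7.45e-05). In all 3 genes the classes did not overlap, and the 3 calls held under each of the 13 alternatives run, with the embryo as a replicate block among them.

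The other members were present in both classes at E4.5. Tcf15 was lower in each PrE-like sum at 40.8 to 75.02 CPM against 156 to 338 CPM, but the difference of -2.04 did not pass (adjusted p = 0.16). Utf1 differed by -1.21 (adjusted p = 0.0587) and Sox11 by -3.93 (adjusted p = 0.0877), and Sox11 passed with DESeq2 and on single cells only (adjusted p = 0.00731 and 0.0488, over alternatives up to 0.26). Zic2 differed by 0.40 and Zic5 by -1.26, and Zic2 stood at 5.17 to 23.2 CPM in the PrE-like sums, inside the span of the epiblast-like sums. Zic2 counts were found in 46 of 78 PrE-like cells and 8 of 26 epiblast-like cells after thinning, and this difference was not tested. Sall2 differed by 0.12 with at most 11.5 CPM in any sum.

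**Figure D4:**
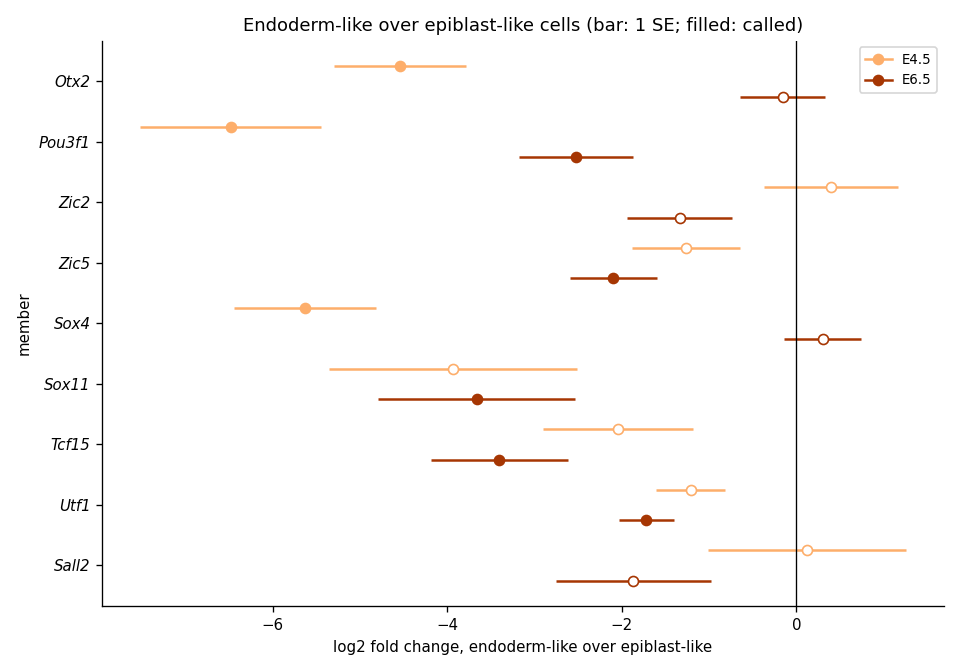
Log2 fold change of each member in endoderm-like over epiblast-like cells at E4.5 and at E6.5, with bars of 1 standard error and filled symbols for called differences. Otx2 and Sox4 lie near -4.54 and -5.63 at E4.5 and near 0 at E6.5, while Utf1, Tcf15, Sox11 and Zic5 are left of 0 and called at E6.5.

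At E6.5 the endoderm-like cells were lower in 5 members, Sox11, Tcf15, Pou3f1, Zic5 and Utf1, beside 13.2% of 12337 genes (7.04% as lower), with a median of -1.87 over the set against -0.15 over all genes. Utf1 ran from 34.1 to 120 CPM in the 7 endoderm-like sums (median 63.1) and from 99.4 to 437 CPM in the 13 epiblast-like sums (median 246), with a difference of -1.72 (SE 0.32, adjusted p = 3.72e-04). Its ranges overlapped at 1 endoderm-like sum, and its call was the only one of the 5 kept both in embryos with and in those without a plate name (-1.61 and -1.92, adjusted p = 0.0127 and 0.0144).

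Tcf15 was at 0 in 5 of the 7 endoderm-like sums and at most 2.58 CPM, with a difference of -3.40 (SE 0.78, adjusted p = 0.00362), and Sox11 was at 0 in 4 of 7 and at most 3.57 CPM, with -3.66 (SE 1.13, adjusted p = 0.0248). Pou3f1 ran from 2.14 to 65.2 CPM (median 11.2) against 50.7 to 241 CPM, with -2.52 (SE 0.65, adjusted p = 0.00847), and Zic5 from 6.43 to 131 CPM (median 76.8) against 54.5 to 603 CPM, with -2.10 (SE 0.49, adjusted p = 0.00456). The Pou3f1 and Zic5 ranges overlapped only through the highest endoderm-like or the lowest epiblast-like sums.

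Within embryos with a plate name 3 members passed (Sox11, Zic5 and Utf1), and within those without one 2 passed (Tcf15 and Utf1). Calls over all genes ran from 536 to 2077 over the alternatives here, so these counts are not like for like either. Pou3f1 missed in both (-2.29 and -4.70, adjusted p = 0.0595 and 0.0733). Zic2 and Sall2 differed by -1.34 and -1.87 (adjusted p = 0.13 and 0.15).

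Otx2 and Sox4 were the members without a called difference at E6.5 that had one at E4.5. Otx2 in the 7 endoderm-like sums stood at 340, 343, 51.6, 601 and 639 CPM in embryos 2, 5, 6, 7 and 8 with a plate name and at 6.67 and 92.4 CPM in the pair titled E6.75. Sox4 in the same sums stood at 418, 244, 184, 505 and 981 CPM and at 13.8 and 70.6 CPM. Both genes thus spanned the whole range of the epiblast-like sums and went below it, and the E6.75 embryos were lowest for Sox4, while embryo 6 lay between them for Otx2. The E6.5 differences were -0.16 for Otx2 (adjusted p = 0.87) and 0.30 for Sox4 (adjusted p = 0.71).

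The change of the endoderm difference between E4.5 and E6.5 was tested directly as an interaction. It was 5.93 for Sox4 (SE 0.90, adjusted p = 1.81e-04), 4.38 for Otx2 (SE 0.86, adjusted p = 0.00312) and 3.96 for Pou3f1 (SE 1.08, adjusted p = 0.0379), 3 of 9 members beside 2.82% of 12337 genes (0.811% as higher). With the embryo as a replicate block only Sox4 passed (5.24, adjusted p = 0.00408), while Otx2 gave 4.04 (adjusted p = 0.0777) and Pou3f1 3.40 (adjusted p = 0.12). With only the E6.5 embryos without a plate name, Sox4 gave 3.77 (adjusted p = 0.0320), Otx2 2.03 (0.32) and Pou3f1 1.74 (0.60), and with only those with a plate name all 3 passed at 6.09, 4.67 and 4.19. The Pou3f1 call was also lost without E4.5 embryo 1, 2, 3 or 4 (3.17 to 4.05), on single cells only and with at least 5 cells. Over all alternatives the adjusted p ran up to 0.0320 for Sox4, 0.32 for Otx2 and 0.60 for Pou3f1.

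The E6.5 endoderm-like cells were then split by Cer1, a secreted antagonist made by the anterior visceral endoderm, at 10 CPM, with sums of at least 2 cells. No embryo gave both a Cer1-positive and a Cer1-negative sum, so Cer1 status and embryo cannot be told apart. Otx2 stood at 912, 446, 431, 600 and 622 CPM in the 5 Cer1-positive sums and at 144, 25.7, 37.5, 9.68 and 73.3 CPM in the 5 Cer1-negative sums. The sets did not overlap, and Otx2 was higher by 3.37 (SE 0.59, adjusted p = 0.0312), the only member called, beside 0.197% of 8131 genes. Sox4 stood at 431, 393, 284, 504 and 954 CPM in the positive and at 33.3, 144, 91.6, 10.4 and 45.3 CPM in the negative sums, also with no overlap, and its difference of 2.98 (SE 0.59) missed the limit (adjusted p = 0.0519).

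**Figure D5:**
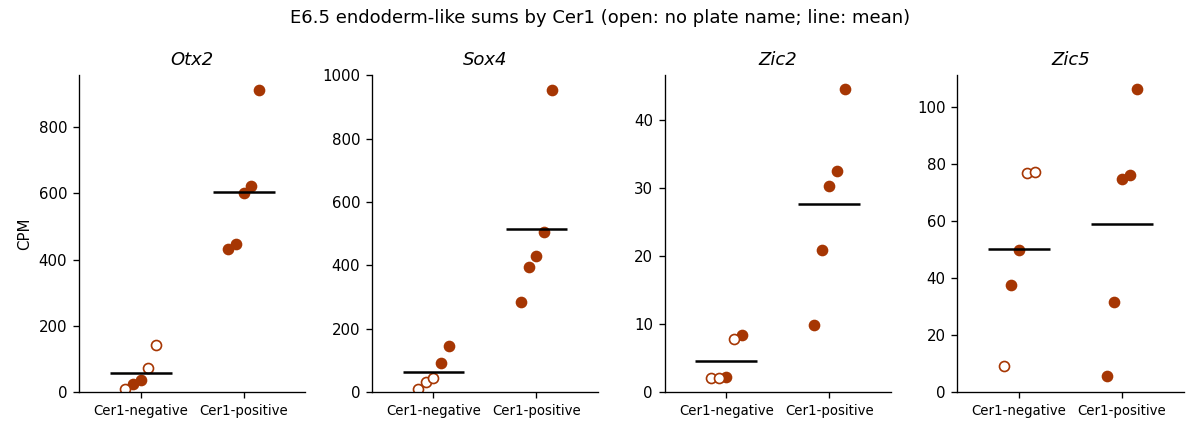
CPM of members in the E6.5 endoderm-like sums of at least 2 cells, by Cer1 status, with open symbols for embryos without a plate name and a line for the mean. For Otx2 the Cer1-positive sums sit between 431 and 912 CPM and the Cer1-negative sums between 9.68 and 144 CPM, and for Sox4 the sets are apart as well.

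Zic2 stood at 9.80 to 44.5 CPM in the positive and 2.04 to 8.35 CPM in the negative sums, with a difference of 2.60 (adjusted p = 0.61), and Pou3f1, Zic5, Utf1 and Sall2 differed by -0.14 to 0.44. Sox11 and Tcf15 had too few counts to be tested. The other 3 anterior visceral endoderm markers, Hhex, Lefty1 and Dkk1, differed by 2.54, 4.51 and 4.76 and did not pass (adjusted p from 0.35 to 0.75), and the 4 markers with Cer1 summed to 1386 to 1658 CPM in the positive and 0 to 133 CPM in the negative sums. The 20 endoderm markers summed to 10561 to 23350 CPM in the positive and 21060 to 35986 CPM in the negative sums, and the 14 streak markers to 879 to 1869 and 55.1 to 1226 CPM. Their part in the result was not tested. All 5 positive sums came from embryos with a plate name and 2 of the 5 negative sums did. Within embryos with a plate name Otx2 was higher by 4.29 (adjusted p = 0.0118). The Otx2 call was lost without any 1 of 6 of the 10 sums (adjusted p = 0.0537 to 0.0899) and with a Cer1 limit of 1 count (0.0507) or 50 CPM (0.0954). With sums of at least 1 cell Otx2 differed by 1.502 (adjusted p = 0.9998), so the adjusted p ran from 1.10e-07 to 1 over all alternatives.

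At E5.5 only 1 embryo had enough endoderm-like cells for a sum, the 5 cells dissected as visceral endoderm from embryo 7, and its values were not tested. Otx2 stood at 177 CPM there, Sox4 at 64.9, Utf1 at 67.9 and Zic2 at 3.38 CPM, while Pou3f1, Zic5, Sox11, Tcf15 and Sall2 had no count among 6668780. With a floor of 3 counts, the pooled E5.5 epiblast-like level was at least 246-fold higher for Pou3f1, 110-fold for Sall2, 88.2-fold for Zic5, 79.5-fold for Tcf15 and 7.11-fold for Sox11. These bounds cover counting error only and hold for the cells of this embryo. The 3 other E5.5 endoderm-like cells, 1 from each of 3 embryos, held 197 counts of Pou3f1 in 2 cells and 24 of Zic5 in 1 cell among 1979854, or 99.5 and 12.1 CPM, and no count of Sox11, Tcf15 or Sall2. As log2(CPM + 1), epiblast markers averaged 3.21 in these 3 cells and 0.94 in the 5 cells of embryo 7.

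The streak-like class, marked by T and 13 other streak genes of which none was at 0, had a sum in 1 embryo, E6.5 embryo 2 without a plate name, which held 24 of the 25 cells. Its 14 streak markers summed to 1404 CPM, against 51.6 to 509 CPM in epiblast-like and 369 to 2551 CPM in endoderm-like sums at E6.5. It was set against the epiblast-like sums of the 4 embryos without a plate name, and its spread was assumed to be like theirs. Its 20 endoderm markers summed to 3660 CPM and its 4 anterior visceral endoderm markers to 241 CPM, against 860 to 4071 and 15.6 to 71 CPM in those 4 sums. As log2(CPM + 1) averaged over cells, endoderm markers were at 5.23 in the streak-like cluster, above its streak markers at 4.66. They were at 2.62 to 3.14 in the E6.5 epiblast-like clusters and at 6.52 in the endoderm-like cluster. The part of these markers in the differences was not tested. With 1 sum on this side, class and embryo cannot be told apart, and a missed limit does not show that a member was alike in both classes. None of the 9 members was called by edgeR, beside 0.0572% of 13987 genes (8 genes). Tcf15 was at 1.12 CPM among streak-like cells and at 22.1, 17.2, 6.46 and 4.96 CPM in the epiblast-like sums, a difference of -3.60 (SE 1.54, adjusted p = 0.9995). Pou3f1 stood at 37.3 CPM against 61.4 to 91.5 CPM (-1.19, SE 0.50) and Otx2 at 161 CPM against 201 to 367 CPM (-0.91, SE 0.41), each below all 4 epiblast-like sums.

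Sox4, Sox11 and Zic2 differed by 0.02, 0.06 and 0.19 between streak-like and epiblast-like sums, with standard errors of 0.37, 0.90 and 0.66. Sox4 was at 172 CPM among streak-like cells, inside the 147 to 181 CPM of the epiblast-like sums. All 22 thinned streak-like cells held Otx2, Zic2, Zic5, Sox4 and Utf1, 21 held Pou3f1 and 2 held Tcf15, and the median cell held 8 of the 9 members. Without thinning, 8 of 25 streak-like cells held Tcf15. Before thinning, the streak-like libraries held a median of 9632 detected genes and the E6.5 epiblast-like libraries 6711. What this did to the shares of cells was not tested.

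Splitting the E6.5 cells outside the endoderm by T, the brachyury gene that marks the streak, at 10 CPM gave 4 embryos with at least 3 cells on both sides. None of the 9 members was called by edgeR, beside 0.00898% of 11139 genes, which was T itself, and none by DESeq2. None was at an unadjusted edgeR p of at most 0.05 either, beside 282 of the 11139 genes. Tcf15 stood at 1.11, 0, 2.08 and 3.28 CPM in the T-positive and at 16.1, 2.18, 7.16 and 6.87 CPM in the T-negative sums, lower in 4 of 4 embryos, with a difference of -2.31 (SE 1.17, adjusted p = 0.9999). Pou3f1 was also lower in each T-positive sum, at 34.0, 109, 58.7 and 79.7 CPM against 82.3, 138, 93.0 and 86.0 CPM (-0.51, SE 0.38). Zic5 went the other way in each embryo, at 115, 505, 261.5 and 277 CPM in T-positive against 60.4, 340, 254 and 239.5 CPM in T-negative sums (0.37). Otx2, Zic2, Sox4, Sox11, Utf1 and Sall2 differed by -0.43 to 0.29.

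A list of 20 other formative and primed genes was counted in the same tests. From E3.5 to E4.5 the list had 13 genes that rose and 1 that fell, with a median of 2.66. Lef1, a nuclear partner of Wnt signalling, and Fgf5, a growth factor of the early postimplantation epiblast, had no count at E3.5, and their pooled E4.5 levels were at least 1581-fold and 328-fold higher, while N-cadherin (Cdh2) had no count at E4.5 and was at least 78.0-fold lower. Fgf5 had counts in 3 of the 5 E4.5 embryos, and its bound without embryo 1 was 129-fold. From E4.5 to E5.5 the list had 4 genes that rose and 2 that fell (median 0.43), with Fgf8 at least 54.9-fold and Cdh2 at least 18.6-fold higher and Lin28b, an RNA-binding inhibitor of let-7 processing, higher by 4.48. From E5.5 to E6.5, 2 rose and 1 fell (median 0.20): Fgf8 by 3.24 and the ephrin receptor Epha4 by 3.24, and the de novo methyltransferase Dnmt3a by -1.54.

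In endoderm the same list had 1 gene higher and 6 lower at E4.5 and 2 higher and 6 lower at E6.5, with medians of -1.69 and -1.32. The largest called differences were at E4.5 in Fgf8 (no count in the epiblast-like sums, at least 59.0-fold higher in PrE-like sums), Sall3 (-6.91) and Lef1 (-4.88), and at E6.5 in the Nodal co-receptor Tdgf1 (-3.31), Lin28b (-3.15) and Lef1 (-2.44). Of the 683 Fgf8 counts in PrE-like sums 664 came from embryo 5, and without it the bound was 2.30-fold. The interaction called 2 higher and 2 lower (median 0.68), and the plate, streak, T and Cer1 comparisons called none (medians 0.15, -0.25, 0.21 and 0.53 over the 20, 20, 20 and 16 genes tested).

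A list of 16 naive and core pluripotency genes was counted likewise. From E3.5 to E4.5 none rose and 7 fell (median -1.99), led by Prdm14 (-6.10), Dppa3 (-4.21) and Fbxo15 (-3.43). From E4.5 to E5.5 none rose and 13 fell (median -4.94), led by the naive transcription factors Esrrb (-6.69) and Tfcp2l1 (-6.13) and by Fbxo15 (-5.91). From E5.5 to E6.5, 3 rose and 4 fell (median -0.18), but the Prdm14 and Nr5a2 calls rested on 1 E6.5 embryo with 37 counts and on 2 E5.5 embryos with 54 counts, and Tbx3 rose by 4.39 from 0.415 to 8.96 CPM on average.

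Between classes, where Sox2, Nanog, Esrrb and Pou5f1 had also served to name the cells, Sox2 was the 1 naive or core gene called in PrE-like cells (-3.44, median of the list -1.57), and in E6.5 endoderm-like cells 5 were higher and 2 lower (median 0.20), with Nr5a2 counts in 1 sum only, Tbx3 higher by 3.69 and Pou5f1, which encodes OCT4, lower (-3.46). Pou5f1 was the 1 gene of the list called between the E6.5 sums with and without a plate name (-1.28). The interaction called 1 higher and 1 lower (median 1.71), and the streak, T and Cer1 comparisons called none (medians -0.33, 0.13 and -0.26 over 13, 10 and 7 genes tested).

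Over the 50 class sums, the Pearson correlation of log2(CPM + 1) described which genes were most alike in pattern, among 17047 genes. The sums share embryos, plates and stages, so these values are descriptions. Otx2 and Sox4 correlated at 0.91, with Prdx2 (0.89) and Msi2 (0.87) next for Otx2 and Msi2 (0.93) and Ldhb (0.91) for Sox4. Pou3f1 was most like Rragd (0.91), Myb (0.89) and Crabp2 (0.87), and Sall2 most like Sema6a (0.86), Msi1 (0.86) and Pou3f1 (0.86). Zic2 was most like Dcbld2, Tubb5 and Twsg1 (0.84 to 0.86), Zic5 most like Dpysl2, Nap1l1 and Trim71 (0.81 to 0.84) and Sox11 most like Zfp334, Lphn2 and Klk8 (0.81 to 0.82).

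Tcf15 and Utf1 stood outside this group. Tcf15 was most like Dnmt3l (0.84), Gm13051 (0.82) and Fmn2 (0.81), Utf1 most like Tor3a (0.79), Lrwd1 (0.77) and Rpl13 (0.77), and the pair correlated with each other at 0.54. Tcf15 correlated with Sox4 at -0.32 and with Otx2 at -0.14.

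Ordered by mean level, the classes formed runs whose neighbours mostly overlapped. Otx2 was highest in the E6.5 epiblast-like and endoderm-like sums, next in the lone E5.5 endoderm-like and streak-like sums and the E5.5 and E4.5 epiblast-like sums, and lowest in E3.5 and PrE-like sums, with a gap in range between the E4.5 epiblast-like and the E3.5 sums. Pou3f1 and Sall2 were highest in E5.5 epiblast-like sums, overlapping both E6.5 epiblast-like sets. For Tcf15 the E4.5 epiblast-like sums came first and were apart from the PrE-like sums that followed. For Utf1 the epiblast-like classes, the E3.5 sums and the PrE-like sums overlapped in turn. Its E6.5 and E5.5 endoderm-like sums came last, apart from the lone streak-like sum before them. The E6.5 endoderm-like sums reached 120 CPM of Utf1. They overlapped the E3.5, PrE-like and plate-name E6.5 epiblast-like sums, whose lowest levels were 90.8, 102 and 99.4 CPM.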

How the data were processed

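The authors trimmed the Smart-seq2 reads (Trim Galore 0.4.3), mapped them to GRCm38 with HISAT2 (2.0.5, both versions per the submitters' processing notes), counted reads of a mapping quality of at least 20 per gene in SeqMonk, and kept cells with enough detected genes and a low mitochondrial share. The file deposited holds raw read counts of every gene in every cell, with no normalization, and every column matched 1 sample. There are no molecular identifiers, so intervals and floors cover counting error only.

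Cells were grouped by the stage and embryo in their labels. The labels give no lineage for most cells, so cells were clustered by a consensus of k-means runs (8 clusters over all stages, 5 at E6.5, 20 starts) on genes detected in 6 to 94% of cells, after the steps of SC3, which the study used, with 45 genes (the members and 2 companion lists) held out, and named from marker means. Ward clustering put 710 of 721 cells in the same class. The study's own markers on these libraries include members, Zic2, Zic5, Sox4, Tcf15 and Pou3f1 among them. Wells titled double were kept, with single cells only as an alternative, and no doublet caller was run.

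Raw counts were summed per class and embryo (at least 3 cells, 2 for Cer1), filtered with filterByExpr, scaled by TMM and tested with edgeR 4.0.16 (R 4.3.3) by the quasi-likelihood test, with Benjamini-Hochberg adjustment over all genes tested. The 3 stage steps came from the same fit, as did both endoderm comparisons and their interaction. Nothing but the embryo label says that sums are separate samples, and p-values measure the spread between embryos. DESeq2 1.42.0, relative log expression scaling, no filter, single cells, other cell minimums, Ward classes, the embryo as a replicate block, other Cer1 and T limits, plate subsets and leaving out each embryo of the smaller groups were alternatives. Splitting the endoderm result and the interaction by plate name, leaving out E6.75 cells from the interaction, leaving out the 29-cell cluster, the T limits and the block with sums of 1 cell were chosen after seeing the data.

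Shares used cells thinned to 200000 counts (708 cells, Python 3.11.15, numpy 2.4.6), with exact intervals from scipy 1.17.1. An exact two-sided permutation test over embryos, computed with numpy, was adjusted over all 13263 genes tested in place of the planned adjustment over the members. In same-embryo sums, deviations from group means correlated at 0.01 to 0.08 in 5 pairs at E4.5, 0.03 to 0.20 in 7 pairs at E6.5 and 0.04 to 0.20 in 4 T pairs. They were over 0.1 in 2 of the E6.5 pairs and 3 of the T pairs, and the pairing comes from the embryo labels.

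The text names the 9 members in every comparison, the 3 largest calls of each companion list, and for each member the 3 genes with the highest correlation. The members and lists were chosen with earlier results of these data known. Each test was checked on simulated counts.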

Additional observations from a re-analysis of the deposited data

Results flagged for a closer look

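Of 62 groups of 4 to 10 embryos, 9 had a highest embryo far from the rest, by the ratio of its gap to the range. The limit used marks about 1 group in 20 where values are normal. Groups with many embryos at 0, as for Sall2 in 9 of 10 at E3.5, are not. The number that chance alone would mark here is thus not known. Pou3f1 stood at 10.7 CPM in E3.5 embryo 3 of plate P8, where the others had 0 to 2.41 CPM. It stood at 240.5 CPM in the epiblast-like sum of E6.5 embryo 9 of plate P3, where the others with a plate name had 50.7 to 145 CPM. In the endoderm-like sum of E6.5 embryo 8 of plate P3 it stood at 65.2 CPM, where the others had 2.14 to 20.9 CPM. Zic5 stood at 147 CPM in E3.5 embryo 2 of plate P8, a sum of 3 cells, where the others had 0 to 34.0 CPM.

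Sox4 and Sall2 both stood at 6.22 CPM in E3.5 embryo 5 of plate P8, where the other embryos had at most 0.880 CPM of Sox4 and none of Sall2. Sox4 stood at 149 CPM in E5.5 embryo 2 of plate P2.P3, where the others had 68.9 to 107 CPM. Utf1 stood at 675 CPM in E5.5 embryo 4 of plate P7.P4.P5, where the others had 410.0 to 476 CPM. Sall2 stood at 11.5 CPM in the PrE-like sum of E4.5 embryo 5 of plate P2, where the others had 0 to 0.890 CPM.

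The endoderm difference changed between E4.5 and E6.5 by the interaction test of edgeR for Otx2 (4.38, adjusted p = 0.00312), Pou3f1 (3.96, adjusted p = 0.0379) and Sox4 (5.93, adjusted p = 1.81e-04). With the embryo as a replicate block the adjusted p was 0.0777, 0.12 and 0.00408. In the E5.5 endoderm-like sum, which no test used, Otx2 stood at 177 CPM, Zic2 at 3.38, Sox4 at 64.9 and Utf1 at 67.9 CPM, above the 0.45 CPM that a count of 0 allows.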

How the results depend on the processing

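Over 88 fold changes and 1213 alternatives, 1071 kept direction and side of the limit, 41 lost the call, 26 gained one, 75 uncalled values changed sign and no called value did. Over 27 shares and 81 alternatives these were 62, 9, 2, 8 and 0. The number of members called stayed within 1.5 times under every alternative from E3.5 to E4.5 (6), at E4.5 between classes (3) and for T (0). Leaving out 1 embryo gave 1 to 3 members from E4.5 to E5.5 (3 in all embryos) and 0 to 2 for Cer1 (1). From E5.5 to E6.5 the 4 calls became 0 with only the E6.5 embryos without a plate name. Between E6.5 sums with and without a plate name, 1 member was called with DESeq2, relative log expression scaling or single cells, and 0 otherwise. The 5 endoderm calls at E6.5 became 3 with at least 5 cells, 3 in embryos with a plate name and 2 in those without. For Cer1, DESeq2 and no filter gave 2, and at least 1 cell and a limit of 1 count gave 0. The shares gave 8 calls on single cells only, against 14. The cause was not tested, except that subsets hold fewer embryos.

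With the embryo as a replicate block the interaction called 1 member in place of 3, and Cer1 with sums of at least 1 cell called 0. The block changed no other call of a count. For the streak and for Cer1 with 2 cells no paired fit was possible because no 2 embryos held both groups, and the streak could not be run without E6.5 embryo 2, which holds its sum. Over all genes, calls ran from 559 to 1157 from E4.5 to E5.5 (830), 235 to 2945 from E5.5 to E6.5 (1074), 0 to 248 for the plate name (101), 393 to 1023 at E4.5 (641), 536 to 2077 at E6.5 (1628), 133 to 645 for the interaction (348), 0 to 39 for the streak (8), 1 to 4 for T (1) and 1 to 134 for Cer1 (16). Members with few counts (Sox11, Sall2, and Tcf15 in endoderm) limit what these depths can show.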
